A study of Mus musculus with 8 samples.

Results

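The genes described here encode the machinery by which a mitogen lets a cell leave G1: the D cyclins (Ccnd1, Ccnd2, Ccnd3), their kinases (Cdk4, Cdk6) and inhibitor proteins of the Cip/Kip class (Cdkn1a, Cdkn1b) and the Ink4 class (Cdkn2c, Cdkn2d). They were chosen by gene symbol, with the row of the highest mean taken for a symbol with several rows, and all 9 were found among the 14033 symbols of the authors' deposited table. RNA was sequenced from mouse fetal liver cells at embryonic day E14.5. The embryos came from crosses of Flt3-Cre mice, in which Cre is under the control of the cytokine receptor gene Flt3, with mTmG reporter mice, in which a cell makes red Tomato until Cre acts in it or in one of its ancestors and makes green GFP from then on. GFP+ cells (4 libraries) therefore have a history of Flt3-Cre activity. In Tomato+ cells (4 libraries), from embryos of the same crosses, the reporter had not switched. Both fractions were sorted as lineage-negative, Kit+, Sca1+ and CD150+. The labels do not say whether the libraries of a fraction came from separate embryos or litters, so the authors' p-values may reflect technical spread alone.

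D cyclins bind Cdk4 or Cdk6, and the active pair phosphorylates the retinoblastoma protein and its relatives, which frees E2f factors to switch on genes of DNA synthesis. Ink4 proteins bind Cdk4 and Cdk6 and block them. Cip/Kip proteins block Cdk2 complexes and can also help D cyclins and their kinases to assemble. In blood formation the inhibitors are known for holding stem cells quiescent, and mice that lack all D cyclins, or both Cdk4 and Cdk6, fail to sustain fetal blood formation.

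The promoters of the 2 kinases are shown because Cdk4 passed the test and Cdk6 did not, and because their counts of the E-box CACGTG, which Myc family proteins bind, differ. Whether Myc proteins have a part in the rise of Cdk4 was not tested. Each run covers 250 bases before and 50 bases after the start, from RefSeq on GRCm38.p6, with every CACGTG in capitals. This sequence reads the same on both strands. The Cdk4 run lies at chr10:127063285-127063584 on the plus strand and the Cdk6 run at chr5:3343643-3343942 on the plus strand.
Cdk4: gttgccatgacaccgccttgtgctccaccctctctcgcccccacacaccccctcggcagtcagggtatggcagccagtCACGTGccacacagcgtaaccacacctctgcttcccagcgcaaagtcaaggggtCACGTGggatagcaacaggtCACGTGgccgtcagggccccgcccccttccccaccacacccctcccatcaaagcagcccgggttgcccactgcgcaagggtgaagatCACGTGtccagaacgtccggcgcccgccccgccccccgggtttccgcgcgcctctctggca
Cdk6: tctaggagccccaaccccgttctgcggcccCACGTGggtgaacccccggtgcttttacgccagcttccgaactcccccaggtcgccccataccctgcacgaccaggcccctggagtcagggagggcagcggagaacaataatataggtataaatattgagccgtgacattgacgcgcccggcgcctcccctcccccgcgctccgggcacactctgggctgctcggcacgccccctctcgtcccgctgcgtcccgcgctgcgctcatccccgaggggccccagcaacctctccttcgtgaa
The Cdk4 promoter holds 4 matches, whose first bases lie at offsets of -172, -118, -98 and -11 from the start. The Cdk6 promoter holds 1 match, at an offset of -220. Of all 32851 mouse promoter windows of this length, 2349 (7.15%) hold at least 1 match and 8 hold 4 or more. Promoter windows were found for 7 of the 9 genes, 10 windows in all, and 3 of these 10 hold a match, the remaining one being 1 of 2 windows of Cdkn2c. No window was found for Ccnd1 or Ccnd2, so the motif counts given here do not cover them. The AP-1 motif TGANTCA, searched on both strands, is in 0 of the 10 windows and in 7.81% of all windows. The E2F motifs TTTGGCGC and TTTCCCGC, searched likewise, are in 0 of the 10 and in 1.56% of all. A match is only a match of letters.

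Of the 9 genes, 2 rose in GFP+ cells and 0 fell at the authors' adjusted p under 0.05 per the authors' deposited table. Over all 14268 rows, 7.49% passed in either direction, 4.86% higher and 2.64% lower in GFP+. The genes that rose were Ccnd1 and Cdk4, one cyclin and one kinase. None of the 4 inhibitor genes passed, and none had an unadjusted p under 0.05 in the authors' comparison, against 16.2% of all rows (10.2% higher and 6.01% lower in GFP+). Log2 values of GFP+ over Tomato+ were above 0 for 8 of the 9 genes, against 51.2% of all rows, and the median over the 9 was 0.23, against 0.01 over all rows. The share of rows above 0 depended on the mean. It was 40.7% below a mean of 50, 47.5% from 50 to 500, 64.0% from 500 to 2000 and 83.3% from 2000 to 5000. The D cyclins, Cdk4 and Cdk6 lie in the last 2 ranges. When both fractions were scaled to the same total, which lowers every log2 value by 0.16, Ccnd2, Ccnd3 and Cdk6 turned to just below 0. Centring on the median log2 of rows whose mean reached 50, a shift of 0.031, left these 3 genes at 0.095, 0.12 and 0.059. The table holds fraction means and no value per library, so no SD can be given and whether libraries of the fractions overlap cannot be seen. In bulk RNA a difference in the share of cells that express a gene and a difference in RNA per cell cannot be told apart.

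**Figure D1:**
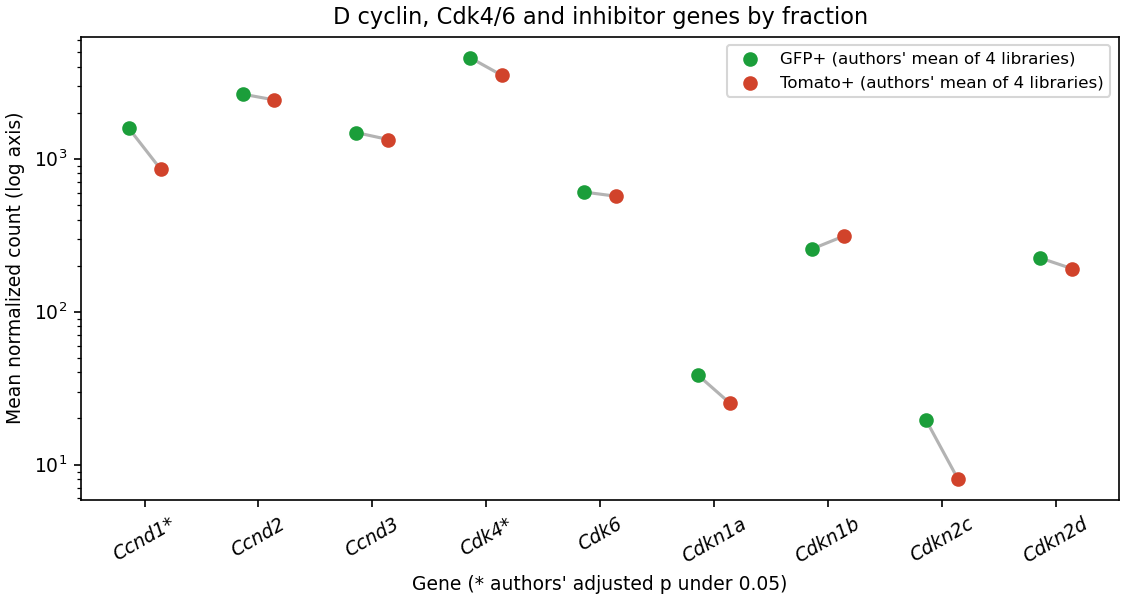
Authors' mean normalized counts (log axis) of the 9 genes in GFP+ (green, left of each pair) and Tomato+ cells (red, right), with asterisks on the genes that passed the authors' adjusted p of 0.05. Ccnd1, at 1585 in GFP+ against 855 in Tomato+, has the steepest line among the genes with means above 50, and Cdkn1b is the one gene whose GFP+ point lies lower.

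Among the D cyclins only Ccnd1 passed. In the authors' deposited table Ccnd1 (kgCluster24420), which encodes cyclin D1, averaged 1585 normalized counts in GFP+ cells and 855 in Tomato+ cells, a 1.85-fold rise (log2 0.89, adjusted p = 1.89e-07). By p-value it stood 146th of the 14268 rows, and by size 310th of the 693 rows that rose. Ccnd2, which encodes cyclin D2, had 2641 in GFP+ cells and 2421 in Tomato+ cells per the authors' deposited table (log2 0.13, adjusted p = 0.966). Ccnd3, whose protein, cyclin D3, is known for its role in lymphoid progenitors and red cell precursors, had 1479 in GFP+ cells and 1334 in Tomato+ cells per the authors' deposited table (log2 0.15, adjusted p = 0.650). The means of Ccnd2 and Ccnd3 thus differed by 9.10% and 10.9% between the fractions, and that of Ccnd1 by 85.3%.

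The balance between the D cyclins can be read as a ratio of 2 genes within a fraction, whose change between fractions depends neither on scaling nor on transcript length. From the authors' deposited means, Ccnd1 stood at 0.600 of the Ccnd2 count in GFP+ and at 0.353 in Tomato+, a quotient of 1.70. Against Ccnd3 it stood at 1.07 in GFP+ cells and 0.641 in Tomato+ cells, a quotient of 1.67. The ratio of Ccnd2 to Ccnd3 was 1.79 in GFP+ cells and 1.82 in Tomato+ cells, a quotient of 0.984. By these means the D cyclin mix held more Ccnd1 in GFP+ cells, and Ccnd2 and Ccnd3 stood in nearly the same proportion in both fractions. These quotients carry no test, since the table gives no values per library.

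Levels of different genes can be compared only per length. The authors' deposited means were divided by the longest protein-coding transcript of each gene in GENCODE vM21, which may differ from the models the authors counted. On that scale of normalized counts per kilobase, Ccnd1 had 424 in GFP+ cells and 229 in Tomato+ cells. Ccnd2 had 417 in GFP+ cells and 382 in Tomato+ cells on that scale, and Ccnd3 had 700.1 in GFP+ cells and 631 in Tomato+ cells. With these lengths Ccnd3 was the highest of the D cyclins in both fractions, and Ccnd1, the lowest in Tomato+, was level with Ccnd2 in GFP+. Ccnd1 made up 27.5% of the summed D cyclin level per kilobase in GFP+ and 18.4% in Tomato+. The median length of protein-coding transcripts of at least 1000 bases was then taken instead, a choice made after seeing the data. For Ccnd1 both lengths were 3740 bases. With the median length the Ccnd1 shares were 22.8% in GFP+ and 14.9% in Tomato+, and the order turned. Ccnd2 then had 720.02 per kilobase in GFP+ and 660.0 in Tomato+, slightly above Ccnd3 with 718 in GFP+ and 647 in Tomato+, and Ccnd1, at 424 in GFP+ and 229 in Tomato+, was the lowest in both fractions. The order of the D cyclins per length thus depends on the transcript taken.

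**Figure D2:**
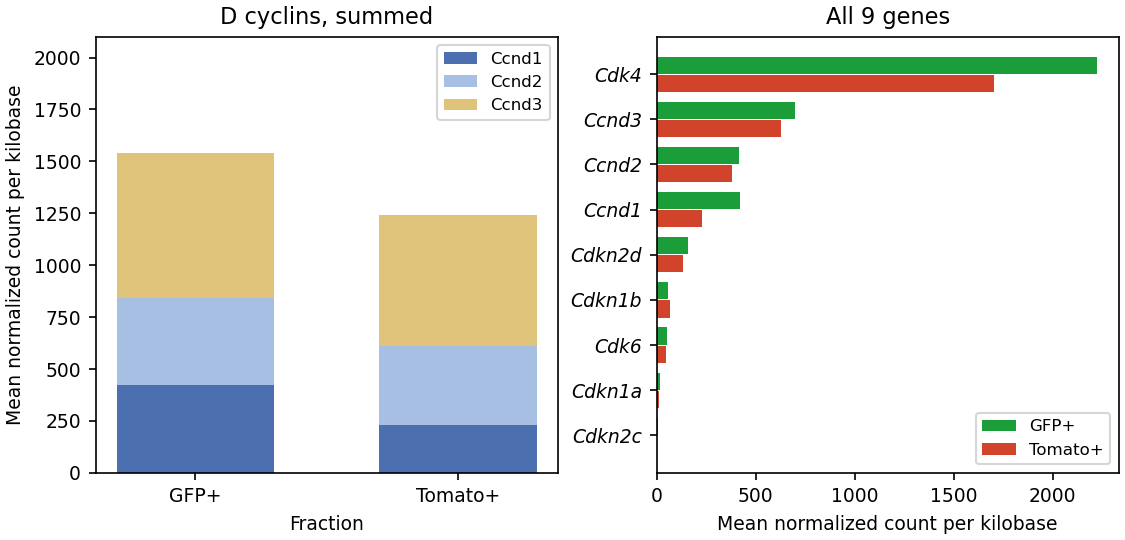
Left, the 3 D cyclins stacked as mean normalized counts per kilobase of the longest GENCODE transcript, in GFP+ and Tomato+ cells. Right, the same quantity for all 9 genes, GFP+ (green) above Tomato+ (red). The Ccnd1 block is 424 in GFP+ cells and 229 in Tomato+ cells, and Cdk4 is the longest pair of bars, at 2223 in GFP+ and 1703 in Tomato+; no error can be shown for fraction means.

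Of the kinases, Cdk4 passed and Cdk6 did not. Cdk4 (kgCluster2702) averaged 4564 normalized counts in GFP+ cells and 3497 in Tomato+ cells per the authors' deposited table, a 1.31-fold rise (log2 0.38, adjusted p = 0.0485). It lies just inside the threshold, 1064th by p-value where 1069 rows passed, and it did not pass at an adjusted p under 0.01. Cdk6 had 605 in GFP+ cells and 568 in Tomato+ cells per the authors' deposited table (log2 0.09, adjusted p = 1). Highly expressed rows leaned towards GFP+ as a whole: among the 444 rows with an overall mean from 2000 to 5000, which include Cdk4 and Ccnd2, the median log2 was 0.18 and 16.0% rose, while 1.35% fell. Among the 3287 rows with a mean from 500 to 2000, which include Ccnd1, Ccnd3 and Cdk6, the median was 0.07 and 4.29% rose. The ratio of Cdk4 to Cdk6 counts was 7.55 in GFP+ and 6.16 in Tomato+, with no test. Per kilobase Cdk4 was the highest of all 9 genes, at 2223 in GFP+ cells and 1703 in Tomato+ cells, and Cdk6, with a much longer transcript, had 52.5 in GFP+ and 49.3 in Tomato+.

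**Figure D3:**
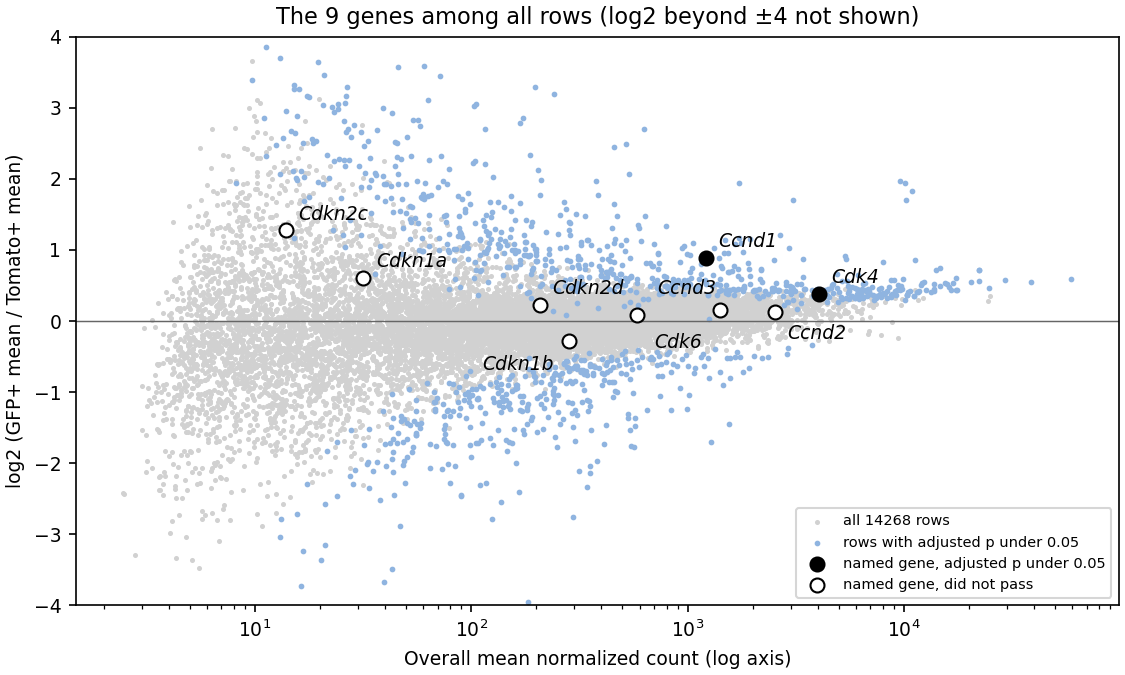
Log2 of the GFP+ over the Tomato+ mean against the overall mean normalized count (log axis) for the rows of the authors' table (grey), those with adjusted p under 0.05 (blue), and the 9 genes (black if passed, white if not). Ccnd1, at a log2 of 0.89, stands clear of the rows of like mean that did not pass, Cdk4 at 0.38 lies at the edge of them, and Cdkn2c and Cdkn1a lie in the wide spread of rows with low means.

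Neither Cip/Kip gene passed, and their log2 values had opposite signs. The Cip/Kip gene Cdkn1b, which encodes p27, had 257 in GFP+ cells and 312 in Tomato+ cells per the authors' deposited table (log2 -0.28, adjusted p = 0.938), and it was the one gene of the 9 with a negative log2 value. Cdkn1a, which encodes p21, the inhibitor induced by p53, had only 38.4 in GFP+ cells and 25.2 in Tomato+ cells per the authors' deposited table (log2 0.61, adjusted p = 0.673). The ratio of p21 to p27 counts was 0.150 in GFP+ cells and 0.0808 in Tomato+ cells, with no test.

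Both Ink4 genes had log2 values above 0 that did not pass. Cdkn2c, which encodes p18, had the lowest mean of the 9, also per kilobase, with 19.6 in GFP+ cells and 8.09 in Tomato+ cells per the authors' deposited table, and the largest log2 value, 1.28 (adjusted p = 0.407). Cdkn2d, which encodes p19, had 225 in GFP+ cells and 191 in Tomato+ cells per the authors' deposited table (log2 0.23, adjusted p = 0.674). A second row of Cdkn2d (kgCluster27390) had 184 in GFP+ cells and 156 in Tomato+ cells, also a log2 of 0.23, per the authors' deposited table. The way reads were divided between these rows is not stated in the sources used here. The summed counts of the 4 inhibitors, with only the first row of Cdkn2d, were 539 in GFP+ cells and 536 in Tomato+ cells. Those of the 5 cyclin and kinase genes were 10874 in GFP+ and 8674 in Tomato+. Divided by the longest transcript length, the inhibitors summed to 240.6 per kilobase in GFP+ and 218 in Tomato+. The cyclin and kinase genes then summed to 3817 in GFP+ and 2995 in Tomato+. Per kilobase the order of the inhibitors in both fractions was Cdkn2d, Cdkn1b, Cdkn1a and Cdkn2c, from 158 to 7.95 in GFP+ and from 134 to 3.28 in Tomato+. Of the other inhibitor genes, Cdkn1c, which encodes p57, had 219 in GFP+ cells and 308 in Tomato+ cells per the authors' deposited table (log2 -0.49, adjusted p = 0.187). Of the 4 genes in that list, 2 had a row, and 0 passed in the authors' comparison, with 1, Cdkn1c, at an unadjusted p under 0.05. Cdkn2a and Cdkn2b were searched for by symbol, and no row was found for either.

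Downstream of the kinases, 1 of 17 pocket protein and E2f genes rose and 0 fell, against 4.86% and 2.64% of all rows. Their median log2 was -0.01. E2f2, an activating E2f factor, had 497 in GFP+ cells and 303 in Tomato+ cells per the authors' deposited table, a 1.64-fold rise (adjusted p = 1.66e-07). The pocket protein gene Rbl2, which encodes p130 of resting cells, had 355 in GFP+ cells and 506 in Tomato+ cells per the authors' deposited table and just missed the threshold (log2 -0.51, adjusted p = 0.0502). The retinoblastoma gene Rb1 itself, chosen after its values were seen, had 219.9 in GFP+ cells and 223 in Tomato+ cells per the authors' deposited table. E2f target genes of S phase entry had values on one side, with 22 of 23 above 0. Of all rows, 47.5% with a mean from 50 to 500 lay above 0, 64.0% from 500 to 2000 and 83.3% from 2000 to 5000. At a mean of at least 5000 the share was 95.7%. Only 1 of the 23 genes passed. That gene was Rrm2, a subunit of ribonucleotide reductase, with 1406 in GFP+ cells and 1085 in Tomato+ cells per the authors' deposited table (log2 0.37, adjusted p = 0.0159). The sliding clamp gene Pcna had 3764 in GFP+ cells and 3009 in Tomato+ cells per the authors' deposited table and did not pass (adjusted p = 0.0833). The median of the E2f targets was 0.16 as deposited. With both fractions scaled to the same total it was 0.00075, with 12 of 23 above 0. After centring on the median log2 of rows whose mean reached 50, it was 0.13. The size of this lean thus depends on the scaling taken.

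With both fractions scaled to the same total, the median log2 of the later cyclins, their kinases and Cdc25 phosphatases was 0.054, with 8 of 13 above 0. As deposited, the median was 0.21, and after centring it was 0.18. Of the 13 genes 3 rose and 0 fell, against 4.86% and 2.64% of all rows. The genes that rose act in G2 and mitosis. Cdc25b, a phosphatase that activates Cdk1, rose 1.45-fold per the authors' deposited table. Ccnf, which encodes cyclin F, rose 1.40-fold, and Ccnb1, which encodes cyclin B1, 1.34-fold per the authors' deposited table. Ccnb1 had 2312 in GFP+ cells and 1720 in Tomato+ cells per the authors' deposited table (adjusted p = 0.0387). The S phase cyclin gene Ccna2 had 2292 in GFP+ cells and 1876 in Tomato+ cells and did not pass (log2 0.29, adjusted p = 0.141, the authors' deposited table). The genes of cyclin E, the next step after cyclin D, were chosen after their values were seen: Ccne1 had a log2 of -0.11 and Ccne2 of 0.20 per the authors' deposited table, and neither passed.

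Of the 6 genes of Cdk activation and assembly 1 rose, the chaperone gene Hsp90ab1, with 28625 in GFP+ cells and 20688 in Tomato+ cells (adjusted p = 0.00812, the authors' deposited table). Its relative Hsp90aa1 had a log2 of 0.43 and did not pass (adjusted p = 0.0630, the authors' deposited table). The log2 of Hsp90ab1 was 0.47. Among the 163 rows with an overall mean of at least 5000, which include both genes, the median log2 was 0.38. Of these rows 69.3% rose and 0 fell, so a rise at this level is common. Among 16 genes of ubiquitin ligases that act on D cyclins or inhibitors, the median log2 was 0.08. Of these 16 genes 1 rose and 0 fell, against 4.86% and 2.64% of all rows. The gene that rose was Ubac1, a subunit of the KPC ligase that acts on p27 in G1. It had 692 in GFP+ cells and 556 in Tomato+ cells (adjusted p = 0.00599, the authors' deposited table). Rnf123, the catalytic subunit of the same ligase, had 558 in GFP+ cells and 476 in Tomato+ cells and did not pass (adjusted p = 0.0632, the authors' deposited table). Skp2, the subunit that recognises p27 in S phase, named after its value was known, had 584 in GFP+ cells and 549 in Tomato+ cells per the authors' deposited table.

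Genes of p53 and its targets, which include partners of Cdkn1a in that response, showed 1 rise and 0 falls among 21. Over all rows 4.86% rose and 2.64% fell. The median log2 of the 21 genes was -0.14. Over the 15 of them whose mean count reached 50 the median was -0.04. Gadd45a, a growth arrest gene, had 121 in GFP+ cells and 93.6 in Tomato+ cells (log2 0.37, adjusted p = 0.0379, the authors' deposited table). Btg2, an antiproliferative gene, had 212 in GFP+ cells and 158 in Tomato+ cells and did not pass (adjusted p = 0.0602, the authors' deposited table). Trp53 itself, chosen after its values were seen, had 2044 in GFP+ cells and 1949 in Tomato+ cells per the authors' deposited table.

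Upstream regulators changed in both directions, with 2 of 25 higher and 6 lower, against 4.86% and 2.64% of all rows. Their median log2 was -0.13. The cytokine receptor gene Flt3, whose Cre driver defines the fractions, rose 2.32-fold in GFP+ (the authors' deposited table). It had 3753 in GFP+ cells and 1617 in Tomato+ cells. Myc had 2594 in GFP+ cells and 1726 in Tomato+ cells, a log2 of 0.59 (adjusted p = 0.00103, the authors' deposited table), and was named after its values were seen. Its relative Mycn, named likewise, had 2164 in GFP+ cells and 2342 in Tomato+ cells and did not pass (adjusted p = 0.982, the authors' deposited table). Jun and Fos, the AP-1 genes induced by mitogens and stress, were lower in GFP+ cells, 5.05-fold and 47.5-fold per the authors' deposited table, Fos at a GFP+ mean of only 2.47. Falls were also seen for Gfi1, Kmt2a and Stat5a, at -0.75, -0.49 and -0.47 on the log2 scale per the authors' deposited table, named after their values were seen. Stat5b had a log2 of -0.34 and did not pass (adjusted p = 0.187, the authors' deposited table).

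**Figure D4:**
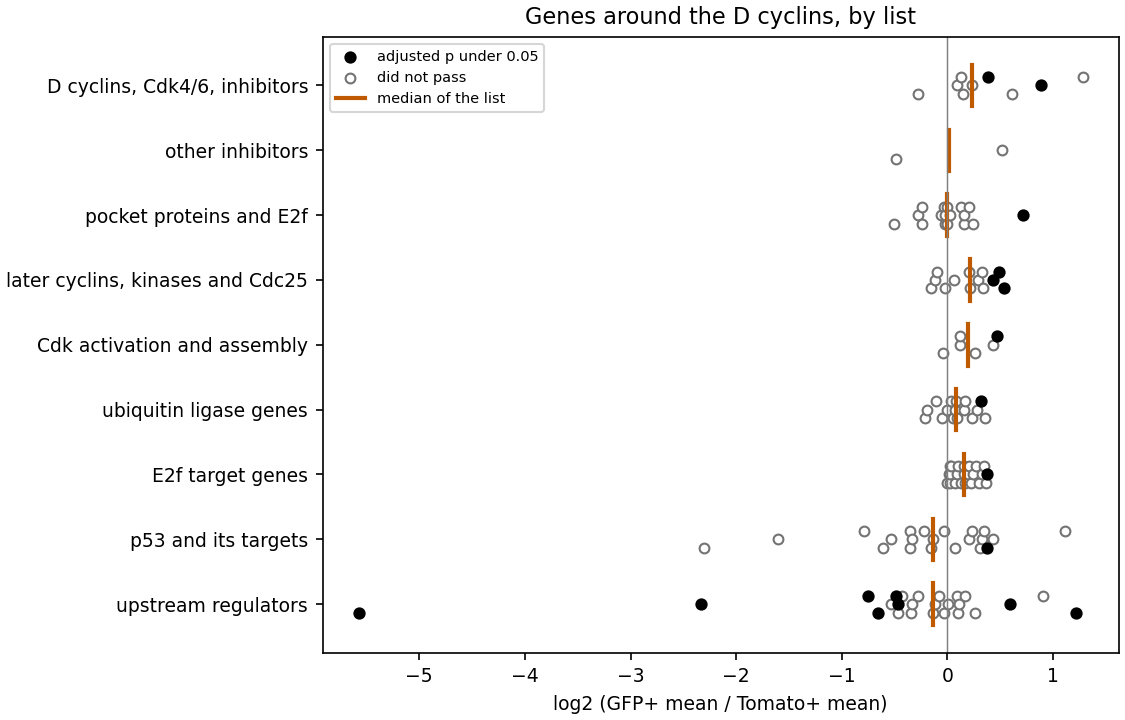
Log2 of the GFP+ over the Tomato+ mean for each measured gene of the 9-gene set and of 8 surrounding lists, black where the authors' adjusted p was under 0.05 and white where it was not, with the list median as an orange bar; the vertical offset of points has no meaning. The E2f targets lie in a narrow band with 22 of 23 points above 0, and the upstream regulators spread widest, from Fos at -5.57 to Flt3 at 1.22. With both fractions scaled to the same total, which is not drawn, 12 of 23 E2f targets were above 0. After centring, also not drawn, the median of the E2f targets was 0.13.

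Markers of the sorted cells and of other fetal liver cell types differed between the fractions as well. The sort for lineage-negative, Kit+, Sca1+ and CD150+ cells would be expected to remove mature red cells, macrophages and hepatoblasts. Of the sort genes, named after their values were seen, Slamf1, which encodes CD150, fell, with 27.9 in GFP+ cells and 119 in Tomato+ cells, and Kit, with 4087 in GFP+ cells and 4950 in Tomato+ cells, did not pass, per the authors' deposited table. Of the 8 stem cell markers, Slamf1 among them, 8 fell, and of 7 measured lymphoid-primed markers 6 rose. For all rows these shares were 4.86% higher and 2.64% lower in GFP+. Summed erythroid markers (6 of 7 rose, 0 fell) had 36402 normalized counts in GFP+ cells and 10460 in Tomato+ cells, while hepatoblast markers (8 of 9 rose, 0 fell) had 3303 in GFP+ cells and 1673 in Tomato+ cells. Summed macrophage markers (8 of 10 rose, 0 fell) had 1467 in GFP+ cells and 473 in Tomato+ cells. Summed megakaryocyte markers (5 of 7 fell) had 1933 in GFP+ cells and 3946 in Tomato+ cells. The red cell markers with the highest mean counts, not divided by length, were Hbb-b1, with 15589 in GFP+ cells and 4780 in Tomato+ cells, and Hba-a2, with 16122 in GFP+ cells and 4190 in Tomato+ cells, per the authors' deposited table. By the same measure the hepatoblast markers were Dlk1, with 811 in GFP+ cells and 993 in Tomato+ cells, and Afp, with 885 in GFP+ cells and 157 in Tomato+ cells, per the authors' deposited table. The macrophage markers were Csf1r, with 353 in GFP+ cells and 150.5 in Tomato+ cells, and Cd5l, with 294 in GFP+ cells and 42.4 in Tomato+ cells, per the authors' deposited table. Among megakaryocyte markers Itga2b had 155 in GFP+ cells and 609 in Tomato+ cells, and among stem cell markers Hlf had 2530 in GFP+ cells and 3281 in Tomato+ cells, per the authors' deposited table. Among lymphoid-primed markers, beside Flt3, Cd34 had 5974 in GFP+ cells and 3793 in Tomato+ cells, per the authors' deposited table. No marker with a row was listed at 0 in either fraction. The part of these cells in the rises of Ccnd1, Cdk4, E2f2 and the mitotic genes was not tested.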

How the data were processed

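The 9 genes and the lists around them were chosen with earlier results of these data known. The only file used is the authors' own comparison of the fractions, with 14268 rows and a repeated header line that was dropped. Per the submitters' processing notes, DESeq, bedtools, TopHat, TopHat2 2.0.11 and Bowtie2 2.2.1 were used with build mm9; which did what, and with which settings, is not stated in the sources read. Per the file headers, the authors deposited a baseMean (a signal: the normalized count averaged over libraries) overall and per fraction, the ratio (fold) of both means, the log2 of that ratio, and raw and adjusted p-values. The ratio was deposited as Tomato+ over GFP+, and the sign of the log2 value was turned, so that a positive value means higher in GFP+. The adjusted p equalled the Benjamini-Hochberg adjustment over all rows within 5.28e-08. As the table has no value per library, library depths are unknown and no test across libraries was run. Summed over rows, the means came to 7926897 in GFP+ cells and 7111170 in Tomato+ cells. No fraction mean was 0, so no pseudocount was needed.

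A gene was called at the authors' adjusted p under 0.05. Of 127 genes in 8 lists, 123 had a row, and of 54 entries in the marker lists 48 had one, older symbols included. Named from each list were up to 4 called genes with the smallest p and the first that did not pass, from each marker list the 2 with the highest mean; other genes are introduced as chosen after their values were seen. A gene that this rule names is not reported here. Counting and adjustment were tested on simulated data. Promoter sequences are from RefSeq (GRCm38.p6), and transcript lengths from GENCODE vM21; positions were not combined with the mm9 values. Python 3.11.15, pandas 2.3.3 and numpy 2.4.6 were used.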

Additional observations from a re-analysis of the deposited data

How the results depend on the processing

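No paired analysis was possible because only fraction means, with no value per library, were at hand; leaving out libraries, other size factors, count filters and other count tests were not run for the same reason. Of the 9 genes 2 passed, and 1, Ccnd1, passed at an adjusted p under 0.01, with a Bonferroni adjustment or with a minimum log2 change of 0.5, each a stricter criterion. Of the 123 listed genes around them 16 passed, 10 higher and 6 lower, against 4.86% higher and 2.64% lower of all rows. An adjusted p under 0.01 left 6 higher, a Bonferroni adjustment 5 in all, 2 higher and 3 lower, and the minimum change 8 in all, 4 higher. With both fractions scaled to the same total, Ccnd2, Ccnd3 and Cdk6, none of which passed, had log2 values of -0.031, -0.0070 and -0.067, since the shift exceeds their differences. It also turned the median of the ubiquitin ligase genes to -0.080 and that of the other inhibitors to -0.14. After centring, the median of the ubiquitin ligase genes was 0.046 and that of the other inhibitors -0.016. Adjustment over 1 row per symbol, an overall mean of at least 50, centring, the row with the lowest mean, a pseudocount of 1 and, added after seeing the data, removal of rows whose mean reached 5000 moved none of these counts by over 1.5 times. The unknown depth limits what can be said of Cdkn2c and Cdkn1a, whose means are lowest.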

Other observations

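Cyclin and Cdk genes beyond the D cyclins, Cdk4 and Cdk6 were taken by symbol; over all rows 4.86% rose and 2.64% fell. Of 20 other cyclin genes 2 rose, Ccnf and Ccnb1, and 0 fell, with a median log2 of -0.03. Of 17 other Cdk genes 0 rose and 0 fell in the authors' comparison, with a median log2 of 0.03 and 4 at an unadjusted p under 0.05. The genes that follow were chosen after their values were seen. Cdk17 and Cdk18, kinases of the PCTAIRE group, had 871 in GFP+ and 1174 in Tomato+, and 115 in GFP+ and 202 in Tomato+, and did not pass (adjusted p = 0.0528 and 0.0889, the authors' deposited table). Cdk19, a kinase of the Mediator complex, had 1411 in GFP+ and 1125 in Tomato+ and did not pass (log2 0.33, the authors' deposited table). Cdk2ap1, whose protein binds Cdk2, rose, with 2069 in GFP+ and 1543 in Tomato+ (adjusted p = 0.0182, the authors' deposited table). Ccnl1, a cyclin gene linked to splicing, had 723 in GFP+ and 1016 in Tomato+ and did not pass (adjusted p = 0.231, the authors' deposited table).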
